A study of Mus musculus with 4 samples.

Results

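Gm12888, Gm12887 and Gm10573 are predicted genes that lie near each other on mouse chromosome 4. They were selected on measured values, because their signal was high on the arrays labelled Myd88-/- and low on those labelled Myd88+/+. Their levels and differences are therefore given as a description, with no test. These are 3 of 34844 gene names on the array and 3 of the 22312 genes tested. RNA came from the submandibular glands (SMGs) together with the sublingual glands (SLGs) of female C57/BL6 mice aged 10 weeks, and was hybridized to 1-colour Agilent whole mouse genome arrays. One group was Myd88-null (Myd88-/-) and the other wild type (Myd88+/+), with 2 arrays each. Per the study's methods, both genotypes were offspring of heterozygous parents, and its text names whole SMGs as the tissue. All 4 arrays lie on 1 slide, where the Myd88-/- arrays occupy places 1 and 2 and the Myd88+/+ arrays places 3 and 4, so that place on the slide and genotype cannot be told apart. The labels give fewer samples for each genotype than a legend of the study does, and the reason is not given in the sources used here. The labels do not say whether the 2 arrays of a group come from different mice, and p-values below measure the spread between these arrays, which may be technical.

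A symbol made of Gm and a number is given to a mouse gene predicted from the genome sequence, and it carries no assigned function. Such genes often lie in clusters of close copies that arose by tandem duplication. An oligonucleotide probe on an array can also bind the transcript of a close copy, so the signals of related genes may not be independent. MyD88 is the adaptor through which most Toll-like receptors and the IL-1 receptor family signal.

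The array carried 4 probes for the 3 genes, 1 each for Gm12888 and Gm12887 and 2 for Gm10573. Each was a 60-base oligonucleotide spotted once, and all were placed on the minus strand within 120.9 to 121.7 Mb (NCBI37/mm9). In mm9, the Gm12887 probe lay 297.1 kb from the Gm12888 probe, and the Gm10573 probes 666.4 and 679.4 kb from it. The gene order below is that of another assembly, GRCm38.p6, in which distances can differ. The genes were neighbours in a wide sense. In the RefSeq gene table of GRCm38.p6, which held all 3 symbols as protein-coding genes, 4 genes lay between Gm12888 and Gm12887 (Gm8359, Gm12886, Gm12880 and Gm26162). A further 3 lay between Gm12887 and Gm10573 (Gm21404, Gm12892 and LOC115489968). Of these 7 genes, 2 had a probe on the array, Gm8359 (a pseudogene) and Gm12886.

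The probe sequences are shown because the signals rest on them and because they resemble one another. They are given 5′ to 3′ as in the array files, with mm9 positions. Capitals mark the bases at which the Gm12888 and Gm12887 probes differ, and those at which the first Gm10573 probe and the Gm8359 probe differ. The second Gm10573 probe has no capitals.
Gm12888 (chr4:120989513-120989572, minus strand): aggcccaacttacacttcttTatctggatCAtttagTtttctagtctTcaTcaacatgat
Gm12887 (chr4:121286657-121286716, minus strand): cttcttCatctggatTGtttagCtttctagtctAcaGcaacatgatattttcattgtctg
Gm10573, first probe (chr4:121655918-121655977, minus strand): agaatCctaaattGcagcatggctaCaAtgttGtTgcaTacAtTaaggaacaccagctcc
Gm8359 (chr4:121066811-121066870, minus strand): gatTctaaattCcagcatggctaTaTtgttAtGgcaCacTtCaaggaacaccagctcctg
Gm10573, second probe (chr4:121668934-121668993, minus strand): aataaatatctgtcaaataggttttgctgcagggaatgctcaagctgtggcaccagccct

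Among 55681 probes, a search found 1 pair of member probes that aligned with each other. The Gm12888 and Gm12887 probes matched over 46 bases with 6 mismatches (87.0% identity). Counted from 1 at the 5′ end of the Gm12888 probe, with the Gm12888 base first, the differences were T21C, C30T, A31G, T37C, T48A and T51G. The first Gm10573 probe aligned with neither of them, but with the Gm8359 probe over 57 bases (84.2% identity) and with the Gm12886 probe over 52 bases (82.7% identity), each with 9 mismatches. Outside the interval, the Gm12887 probe aligned over 21 bases, with 1 mismatch, with a probe for 2810037O22Rik on the opposite strand. The Gm12888 probe aligned over 23 bases, with 2 mismatches, with a probe for a long intergenic RNA on chromosome 5. How much of a copy's transcript each probe captured was not tested.

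Signal is given as the log2 processed intensity minus the 75th percentile of its array, so that 0 is the level of a bright spot at that percentile. Gm12888 was at 1.33 and 1.56 on the Myd88-/- arrays and at -2.54 and -1.82 on the Myd88+/+ arrays. All 4 values were well above background, and both Myd88-/- arrays lay far above both Myd88+/+ arrays, with a gap of 3.14 between the nearest arrays. The group means were 1.44 ± 0.17 (SD, n = 2) and -2.18 ± 0.51 (SD, n = 2), a log2 difference of 3.63 or 12.3-fold. With normexp background correction, which added an offset of 50 to each spot, the log2 difference was 2.80. In the scanner's own units, the mean intensity of the spot was 732 and 798 on the Myd88-/- arrays and 91.4 and 110 on the Myd88+/+ arrays, over a local background of 25 to 31. The difference was thus visible before background subtraction and scaling, at 7.59-fold between the group means.

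Gm12887 was at 2.72 and 3.11 on the Myd88-/- arrays and at -0.24 and 0.61 on the Myd88+/+ arrays. The groups did not overlap, and the nearest arrays were 2.11 apart. The means were 2.92 ± 0.28 (SD, n = 2) and 0.19 ± 0.60 (SD, n = 2), a log2 difference of 2.73 or 6.64-fold. Its mean spot intensity was 1871 and 2244 on the Myd88-/- arrays and 324 and 474 on the Myd88+/+ arrays, which is 5.16-fold.

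Gm10573 was read by 2 probes, of which 1 was well above background. The first, designed on a RefSeq model, was at 2.20 and 2.75 on the Myd88-/- arrays and at -0.44 and 0.30 on the Myd88+/+ arrays. These values were well above background on all 4 arrays, with means of 2.47 ± 0.39 (SD, n = 2) and -0.07 ± 0.52 (SD, n = 2), a log2 difference of 2.54 or 5.83-fold. The second, designed on an expressed sequence tag and lying 679.4 kb from the Gm12888 probe, was at -6.16 and -5.10 on the Myd88-/- arrays and at -6.91 and -6.52 on the Myd88+/+ arrays. It was not well above background on any array, and its signal had been replaced by the scanner software's surrogate for dim spots on 3 of the 4. No fold is given for it.

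**Figure D1:**
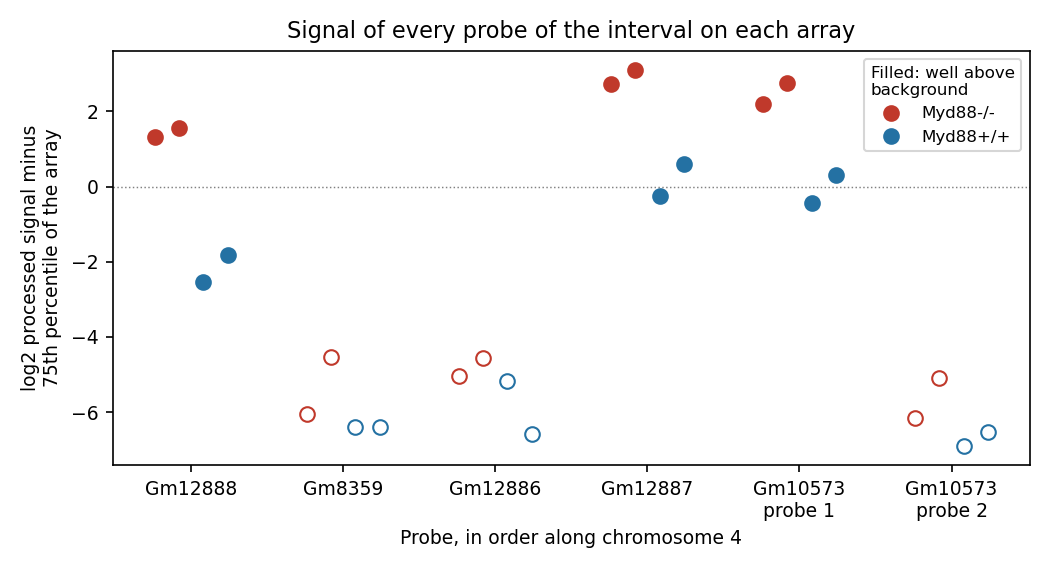
log2 processed signal relative to the 75th percentile of each array (vertical axis) for the 6 probes of the interval in their order along chromosome 4 (horizontal axis), 1 point per array, red for Myd88-/- and blue for Myd88+/+, filled where well above background. Both red points lie above both blue points for all 6 probes, but Gm8359, Gm12886 and the second Gm10573 probe have no filled point and lie at or below -4.53, where no difference is read from them.

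The spread within genotypes was similar for the 3 genes and smaller than the gap between genotypes. The Myd88-/- arrays differed from each other by 0.24 for Gm12888, 0.39 for Gm12887 and 0.55 for Gm10573 (first probe). The Myd88+/+ arrays differed by 0.72, 0.85 and 0.74 in the same order. In each gene the lowest of the 4 values was on Myd88+/+ array 1 and the highest on Myd88-/- array 2. The log2 differences of Gm12887 and Gm10573, at 2.73 and 2.54 on these arrays, differed by less than the SD within genotypes. That of Gm12888 was 3.63 but fell to 2.80 with normexp background correction, beside 2.49 for Gm12887 and 2.27 for Gm10573. Whether the 3 differences are unequal was not tested.

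Among the 20494 genes well above background on all 4 arrays, 1 had a larger log2 difference than Gm12888, 3 than Gm12887 and 5 than Gm10573. Over all 22312 genes tested, which include genes at background in 1 genotype, these numbers were 5, 19 and 23. This order is a description, because it repeats the choice of the genes. All 3 genes were well above background on all 4 arrays, so none entered the analysis only through the genotype in which it was high. Over all 22312 genes tested, the arrays of the 2 genotypes did not overlap in 52.0%, and both Myd88-/- arrays lay above both Myd88+/+ arrays in 33.2%. The 3 members are of the second kind by their selection, and nothing is read from it.

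**Figure D2:**
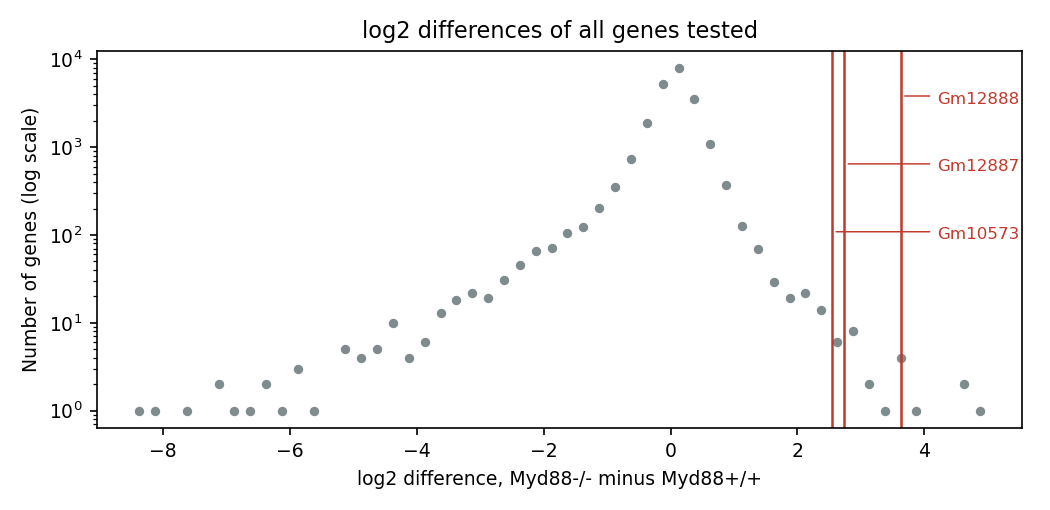
Number of genes (vertical axis, log scale) in each bin of log2 difference, Myd88-/- minus Myd88+/+ (horizontal axis), for the 22312 genes tested, with a red line at each member. Gm10573 (2.54), Gm12887 (2.73) and Gm12888 (3.63) lie in the upper tail of a distribution whose median is 0.06.

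Over all 22312 genes, limma's moderated test called 0 (0%) at an adjusted p of 0.05. Before adjustment, 3715 (16.7%) fell under 0.05, made up of 2190 with a higher and 1525 with a lower signal in Myd88-/- SGs. The adjusted count rose to 482 with trended and robust moderation, to 402 with the median of each array as the scale, to 79 with normexp background correction and to 1 with the test named in the methods. The unadjusted count was 995 with the median scale, 2307 without Myd88+/+ array 1 and 2192 without Myd88+/+ array 2. The split by direction moved with the scaling, to 240 higher and 755 lower with the median of each array, and to 1601 higher and 1893 lower with cyclic loess. For a single gene, the smallest two-sided p of an exact permutation test with this design is 0.333. Myd88 itself, read by 1 probe with 10 spots, was at 1.51 and 1.41 on the arrays labelled Myd88-/- and at 1.15 and 1.07 on the others (log2 difference 0.35, adjusted p = 0.264 from limma). Which part of Myd88 is deleted is not given in the sources used here, and the value is therefore no check of the genotype labels.

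The other genes of the interval gave no signal to set beside the members. Gm8359 was at -6.06, -4.53, -6.38 and -6.39 on Myd88-/- arrays 1 and 2 and Myd88+/+ arrays 1 and 2. Gm12886, whose probe spans 1216 bases of the genome and so crosses an intron, was at -5.04, -4.55, -5.16 and -6.57 in the same order. Neither was well above background on any array, and 0 of the 2 genes could be tested. Their spots had a mean intensity of 22.4 to 46.4 over a local background of 26 to 30, and no fold is given. No other symbol numbered Gm12880 to Gm12899 had a probe on the array.

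Genes on either side of the interval were compared as its surroundings. Within 5 Mb, 180 genes were tested, 105 before the interval and 75 after it. The median log2 difference was 0.08, against 0.06 over all genes tested. In limma's test, 29 of the 180 (16.1%) had an unadjusted p under 0.05, close to the 16.7% of all genes, and 0 passed the adjusted threshold. The sides differed in this share, with 22 of 105 genes (21.0%) before the interval and 7 of 75 (9.33%) after it, a difference that was not tested. Of the 29 genes, 23 were higher and 6 lower in Myd88-/- SGs, and this split moved to 16 and 11 with the 75th percentile over detected probes, to 14 and 9 with cyclic loess, and to 1 and 1 with the median of each array. The arrays of the 2 genotypes did not overlap in 92 genes (51.1%), beside 52.0% of all genes, at 58.1% before the interval and 41.3% after it. The differences ran from -2.01 to 1.34, and 2 of the 180 genes exceeded 2-fold, 1 in each direction. The upper end of that range, chosen here after its value was seen, was Klf17, a Krüppel-like transcription factor gene. Klf17 was well above background on only 3 arrays, so it entered the test through 1 genotype only.

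Like the count over all genes tested, the count of 29 genes rested on single arrays and on the scaling. It was 14 without Myd88+/+ array 1, 17 without Myd88+/+ array 2, 18 without Myd88-/- array 1, and 2 with the median of each array as the scale. Just outside the interval, Rlf, a zinc finger protein gene, lay 171.0 kb before the Gm12888 probe and was at -0.22, -0.19, -0.12 and -0.16 on Myd88-/- arrays 1 and 2 and Myd88+/+ arrays 1 and 2 (log2 difference -0.07). The nearest tested probe on the far side, named NAP111445-1 in the files, lay 767.9 kb from the Gm12888 probe and had a log2 difference of -0.02. The nearest tested gene on either side of the 3 members thus had a difference near 0. Farther out, within 5 Mb, the differences ran from -2.01 to 1.34.

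**Figure D3:**
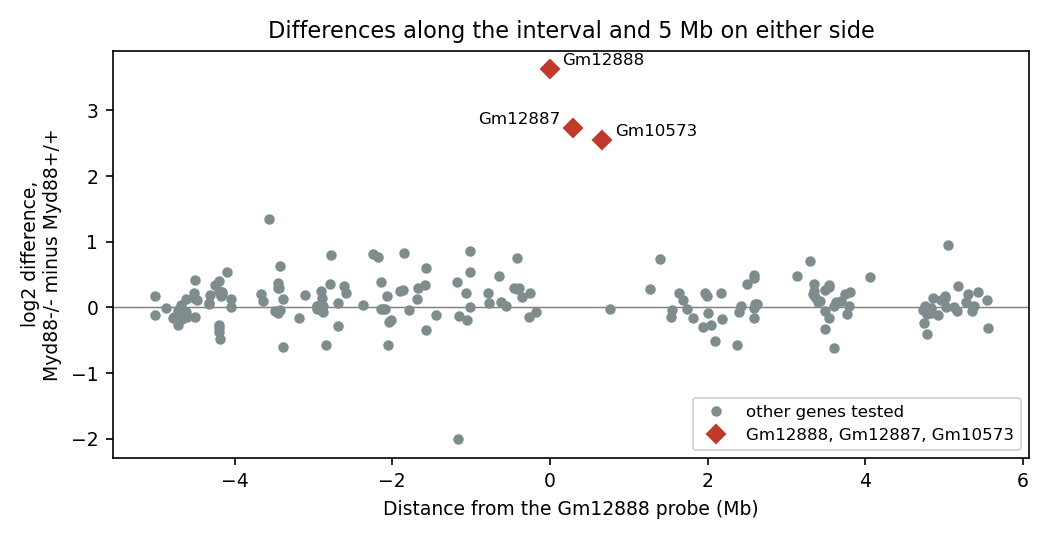
log2 difference, Myd88-/- minus Myd88+/+ (vertical axis), of each tested gene against its distance from the Gm12888 probe in Mb (horizontal axis), grey for the 180 genes within 5 Mb of the interval and red for the 3 members. The members lie between 2.54 and 3.63, and the grey points between -2.01 and 1.34.

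Promoters were examined because the 3 genes were high on the same arrays and lie in 1 cluster. The RefSeq promoter table (GRCm38.p6, 32851 promoters, each of 250 bases before to 50 after the start) held all 3 members. They are shown with that of Gm12886, whose probe stayed at background. Each is given 5′ to 3′ on the strand of the gene. Capitals mark the 60 bases that align best with the second Gm10573 probe.
Gm12888 (chr4:121324868-121325167, minus strand): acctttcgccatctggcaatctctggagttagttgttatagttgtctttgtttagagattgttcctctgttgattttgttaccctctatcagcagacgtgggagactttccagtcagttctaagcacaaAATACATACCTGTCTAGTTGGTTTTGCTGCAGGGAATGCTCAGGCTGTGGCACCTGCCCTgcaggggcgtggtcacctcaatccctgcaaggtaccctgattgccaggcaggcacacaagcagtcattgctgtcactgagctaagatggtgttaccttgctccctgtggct
Gm12886 (chr4:121423050-121423349, minus strand): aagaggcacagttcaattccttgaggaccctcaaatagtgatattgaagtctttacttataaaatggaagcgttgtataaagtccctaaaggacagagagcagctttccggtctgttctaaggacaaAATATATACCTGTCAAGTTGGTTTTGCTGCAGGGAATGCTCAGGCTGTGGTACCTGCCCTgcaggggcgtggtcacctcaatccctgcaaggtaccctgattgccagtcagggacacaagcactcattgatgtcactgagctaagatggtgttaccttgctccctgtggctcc
Gm12887 (chr4:121622076-121622375, minus strand): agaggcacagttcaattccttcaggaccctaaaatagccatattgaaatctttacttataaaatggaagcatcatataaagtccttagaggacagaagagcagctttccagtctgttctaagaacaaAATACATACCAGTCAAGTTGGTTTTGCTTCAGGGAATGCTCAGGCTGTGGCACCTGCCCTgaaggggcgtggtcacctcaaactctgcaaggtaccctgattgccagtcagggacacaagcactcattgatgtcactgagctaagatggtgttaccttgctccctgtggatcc
Gm10573 (chr4:122313770-122314069, minus strand): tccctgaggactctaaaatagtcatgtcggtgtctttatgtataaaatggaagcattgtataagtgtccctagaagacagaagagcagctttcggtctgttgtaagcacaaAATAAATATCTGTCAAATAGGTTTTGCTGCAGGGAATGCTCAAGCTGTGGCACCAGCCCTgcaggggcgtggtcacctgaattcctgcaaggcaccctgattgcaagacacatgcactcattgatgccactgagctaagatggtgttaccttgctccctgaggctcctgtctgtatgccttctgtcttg

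In Gm10573 the 60 capital bases were identical to its second probe (100% identity). They lie 139 to 80 bases before the RefSeq start, so this probe reads sequence outside the RefSeq transcript that begins there, and its low signal measures no part of that transcript model. The same stretch was identical to the probe at 53 of 60 bases (88.3%) in Gm12888 and in Gm12886, and at 52 of 60 (86.7%) in Gm12887. Over their best local alignment, the promoters of Gm12888 and Gm12887 were 93.8% identical (193 bases), those of Gm12888 and Gm10573 87.2% (188 bases), and those of Gm12887 and Gm10573 83.9% (285 bases). The promoter of Gm12886 was as close to Gm12888 and Gm12887 as they were to each other, at 94.9% with Gm12888 (195 bases) and 93.0% with Gm12887 (300 bases), although its probe was not well above background.

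**Figure D4:**
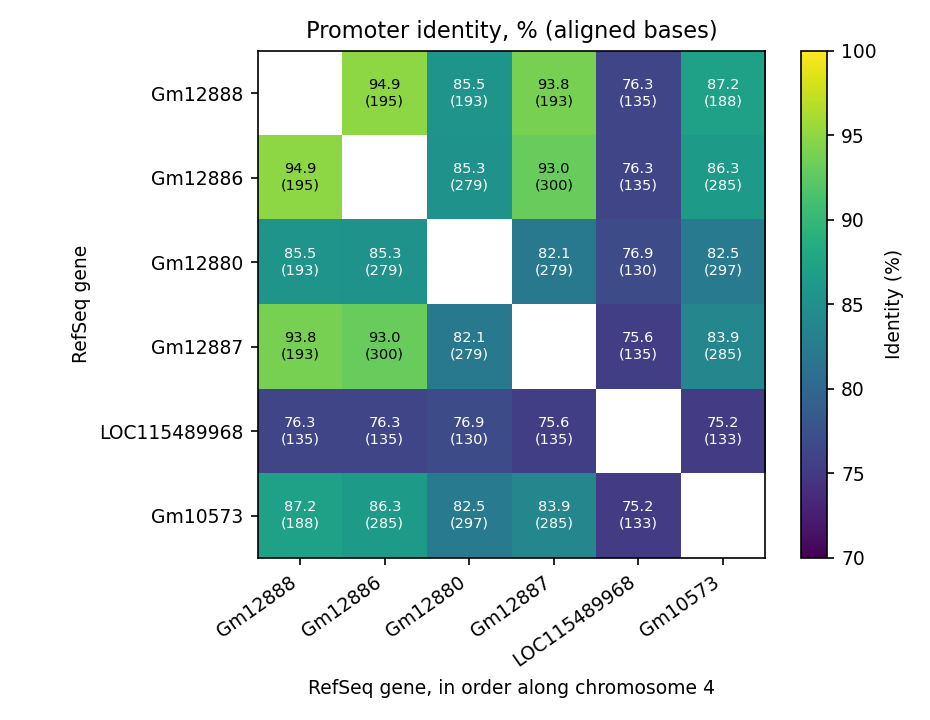
Identity in percent, with aligned bases in parentheses, of the best local alignment between the RefSeq promoters of 6 genes of the cluster (both axes in order along chromosome 4). Gm12888, Gm12886 and Gm12887 are 93.0 to 94.9% identical to each other, and LOC115489968 is at 75.2 to 76.9% with the others.

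Motifs were sought on both strands of the same windows. TATAAA was present in the promoters of Gm12887 and Gm10573 (2 of 3 members) and absent from this window of Gm12888, and 13.6% of all 32851 promoters held it. The matches began 194 and 176 bases before the start in Gm12887 and 210 bases before it in Gm10573. Gm12886, at background on the arrays, held TATAAA at 193 and 175 bases before its start, and Gm12880, which had no probe, held it too. TGANTCA, a loose form of the AP-1 consensus in which N is any base, was in 0 of the 3 members and in 7.81% of all promoters. The NF-kB consensus was in 0 of the 3 members and in 8.46% of all promoters. A missing match says only that these letters are not in this window.

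A more distant relative by promoter sequence lay outside the interval. The promoter of 9530002B09Rik matched that of Gm12888 over 94 bases at 75.5% identity and that of Gm10573 over 116 bases at 73.3%. No match with the promoter of Gm12887 was found. Other promoters outside the interval matched that of Gm12888 at higher identity, up to 89.9% over 99 bases, but their genes had no probe. For 9530002B09Rik, the array gave a signal. Its probe, 1392.8 kb from the Gm12888 probe, was at 2.31 and 2.26 on the Myd88-/- arrays and at 1.65 and 1.45 on the Myd88+/+ arrays. Both Myd88-/- arrays were higher, by 0.73 on the log2 scale with a standard error of 0.12, and limma gave an adjusted p of 0.199. This gene was singled out after its values were seen.

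The genes most like each member were sought over the 4 arrays, by the smallest root mean square (RMS) difference between log2 profiles centred on each gene's mean, among 20491 genes outside the interval that were well above background on all arrays. For Gm12888 the closest was Gm6662, a predicted gene on chromosome 7, with an RMS difference of 0.16. It was at 0.62 and 0.74 on the Myd88-/- arrays and at -3.15 and -2.85 on the Myd88+/+ arrays (log2 difference 3.68). For Gm12887 and for Gm10573 the closest was Abpz, RefSeq symbol Scgb2b24, a gene of the androgen-binding protein family of secretoglobins, with RMS differences of 0.35 and 0.32. Abpz was at 1.86 and 1.73 on the Myd88-/- arrays and at -0.64 and -0.37 on the Myd88+/+ arrays (log2 difference 2.30).

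The 3 lists of 5 held 7 different genes, and 3 of these were in all 3 lists. Of the 7 genes, 4 lay on chromosome 7 and 0 on chromosome 4. The share of all candidate genes on these chromosomes is not given here, and nothing is read from the count. Besides Gm6662 and Abpz, the listed genes on chromosome 7 were Gm12769 and an unnamed probe (log2 difference 2.85). Gm12769 (RefSeq symbol Scgb1b24, log2 difference 1.90) is also of the androgen-binding protein family. The other 3 were probes without a gene name on chromosomes 6, 10 and 16, with log2 differences of 2.18, 2.41 and 2.25. No probe of these 7 genes aligned with a probe of the interval. Between members, the RMS difference was 0.12 for Gm12887 and Gm10573, smaller than that of either to any of its 5 listed genes. It was 0.45 for Gm12888 and Gm12887 and 0.55 for Gm12888 and Gm10573, and all 5 genes listed for Gm10573 were closer to it than Gm12888 was. Seen from Gm12888, 1 of 20493 genes was closer than Gm12887, and 3 were closer than Gm10573, members included. All of these genes were ranked on the same 4 arrays in which the members had been selected.

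**Figure D5:**
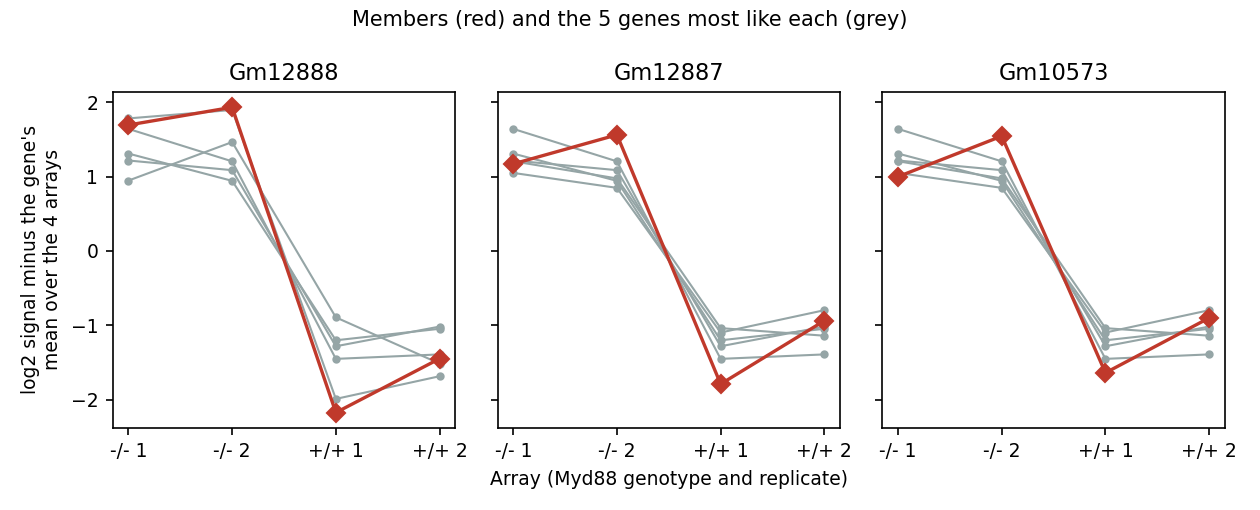
log2 signal minus the gene's mean over the 4 arrays (vertical axis) on each array (horizontal axis, Myd88 genotype and replicate), red for the member and grey for the 5 genes most like it. Every profile shown is above 0 on both Myd88-/- arrays and below 0 on both Myd88+/+ arrays, and the members alone are plotted with diamonds.

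Marker genes of the cell types that the glands could hold were read on the same arrays. In bulk tissue, fewer cells of a type and less RNA per cell cannot be told apart. The counts below are to be read beside the 16.7% of all genes with an unadjusted p under 0.05, 2190 higher and 1525 lower, a split that moved with the scaling. Of 6 SMG acinar genes tested, 3 were higher and 1 lower in Myd88-/- SGs at an unadjusted p under 0.05, and their summed signal, in multiples of the 75th percentile, was 3050 and 2870 on the Myd88-/- arrays and 2780 and 2840 on the Myd88+/+ arrays. Their brightest probe, which need not be that of the most abundant transcript, was Pip, at 10.50 and 10.61 against 10.10 and 10.24. Those called higher were Prol1, Pip and Slc12a2, with log2 differences of 0.375, 0.378 and 0.424. The gene called lower was Smr3a, at 8.31 and 6.68 against 9.45 and 9.26 (log2 difference -1.86). The number called higher fell to 1 with quantile normalization or cyclic loess and to 0 with the median of each array, with 1 lower each time. Of 6 SLG genes, 3 were higher (Dcpp1, Dcpp2 and Dcpp3, with Dcpp2 the brightest), by 0.30, 0.34 and 0.32. These 3 carry the same name stem, and whether their probes read separate transcripts was not tested. Muc19 (log2 difference -0.13), Nkx2-3 (0.04) and Galnt12 (0.02) were not called. The number of SLG genes called higher was also 3 with normexp background correction and 1 with the 75th percentile over detected probes. It was 0 with the median of each array, quantile normalization or cyclic loess. The summed signal was 4970 and 5060 against 3990 and 4250.

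Granular convoluted tubule genes did not pass in either direction (0 of 6), with a summed signal of 2160 and 2100 against 1880 and 2200. Neither did myoepithelial genes (0 of 4), with sums of 55.5 and 52.8 against 49.1 and 65.5. The brightest probes were those of the kallikrein gene Klk1 and the smooth muscle actin gene Acta2. Of 5 parotid gland genes, 1 was higher (Car6) and 2 lower (Prb1 and Prh1), and Car6 was not called with the median of each array, quantile normalization or cyclic loess. The brightest probe was Car6 on the Myd88-/- arrays and Psp on the Myd88+/+ arrays, and the sums were 3600 and 2650 against 3450 and 3480.

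All 5 tested B cell genes of a list of 7 had an unadjusted p under 0.05 and were lower in Myd88-/- SGs. This list leaves out 1 gene that is not reported here. The summed signal of the 5 genes was 2.25 and 1.95 against 14.3 and 7.91. With the median of each array as the scale, 3 of the 5 were called. Ms4a1 was well above background only on the Myd88+/+ arrays and so entered the test only through the genotype in which it was high, which leaves 4 of 4 genes well above background on all arrays. The brightest probe was Cd79a on the Myd88-/- arrays, at 0.18 and -0.24 against 1.15 and 0.58, and Cd79b on the Myd88+/+ arrays, at -3.32 and -2.24 against 2.81 and 1.79. Of 6 tested T cell genes, 2 were lower, Cd3d and Lck (2 to 4 under the other scalings). Cd3d was well above background on only 3 arrays, and of the 3 genes that were so on all arrays 1 was lower (Lck). The sum was 11.8 and 11.3 against 18.7 and 14.9, with Cd4 the brightest probe. All 7 tested skeletal muscle genes of 8 were lower, under each scaling, the sum being 2.85 and 2.81 against 20.8 and 122. Of them, Myh4 and Actn3 were well above background only on the Myd88+/+ arrays and entered in the same way, which leaves 5 of 5. The brightest probe was Acta1 on the Myd88-/- arrays and Myh4 on the Myd88+/+ arrays, the latter at -4.55 and -4.89 against 2.47 and 5.07. Of 5 tested adipocyte genes, 2 were lower (Plin1 and Fabp4, the latter the brightest probe; 1 to 5 under the other scalings and normexp background correction), and the sum was 149 and 237 against 322 and 326. Macrophage genes gave 1 of 6 higher (Emr1), about the share found over all genes, and 0 with the median of each array. Their sum was 36.6 and 32.0 against 39.6 and 29.5, with Csf1r the brightest probe. None of the genes of these lists passed the adjusted threshold in limma's test. The part of these differences in the values of Gm12888, Gm12887 and Gm10573 was not tested.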

How the data were processed

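Per the file headers, the authors read the arrays with Agilent Feature Extraction 10.7.3.1, whose deposited processed signal is a background-corrected intensity with no normalization between arrays. The other deposited columns are the mean spot intensity, the local background and the flags for dim, outlier and saturated spots. Positions are those of NCBI37/mm9 in the files.

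Here, each of 59305 non-control spots was put on a log2 scale and centred on its array's 75th percentile, and outlier spots were dropped. Spots of 1 probe were averaged, and a probe was called well above background if the flag was set for over 0.5 of its spots. This held for 52.2% and 68.4% of 55681 probes on Myd88-/- arrays 1 and 2, and for 74.2% and 55.1% on Myd88+/+ arrays 1 and 2. Precision is limited by having 2 arrays in a group. Genes entered the test through a probe called on both arrays of either genotype, the brightest such probe being used. Groups were compared with limma 3.58.1 in R 4.3.3 (lmFit, eBayes, Benjamini-Hochberg adjustment, threshold 0.05), tested on simulated data. Sequences were aligned with blastn 2.17.0. Promoters and current symbols came from RefSeq tables of GRCm38.p6, and 2 of the 7 genes most like the members had an accession there. A processed table with 4 value columns was not used, because its columns could not be assigned to samples.

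The members, the marker lists and the rule for named genes were chosen with earlier results of these data known. From the B cell list, 1 gene is not reported here, and its counts and sums leave it out. Named genes are the members, every gene of the interval, symbols numbered near theirs, Myd88, the 5 genes most like each member, and marker genes. Klf17 and 9530002B09Rik fall outside this rule and were picked after their values were seen, Rlf and NAP111445-1 were named as the nearest tested genes on either side of the interval, and 2810037O22Rik for its probe's sequence. Alternatives were 16 planned and 1 added after seeing the data. They covered background correction, scaling and normalization, the filter on dim probes, the probe that stands for a gene, outlier spots, the moderation, the methods' t-test, a replicate block and each array left out.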

Additional observations from a re-analysis of the deposited data

How the results depend on the processing

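The log2 differences of Gm12888, Gm12887 and Gm10573 (first probe) were computed under 15 alternatives, of which 6 could not change them and gave the main value. Under the other 9 they stayed above 0, a direction that their selection favours. They ranged from 2.80 to 3.99, from 2.31 to 3.16 and from 2.17 to 2.91. The difference of Gm12888 moved by more than its spread with normexp background correction, to 2.80. The cause was not tested. With each array left out in turn they ran from 3.26 to 3.99, from 2.31 to 3.16 and from 2.17 to 2.91.

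The count of genes at an adjusted p under 0.05 rose from 0 to 79 with normexp background correction, to 402 with the median of each array, to 482 with trended and robust moderation and to 1 with the methods' t-test. It was 0 under the other 13 alternatives, and the cause was not tested. The count at an unadjusted p under 0.05, 3715, fell to 995 with the median of each array, to 2307 without Myd88+/+ array 1 and to 2192 without Myd88+/+ array 2. With 1 array left in a genotype, that array is assumed to vary like the others. The count of 29 genes within 5 Mb of the interval was 2 with the median of each array, 18 without the filter on dim probes and 14 to 20 with an array left out. No gene of the interval besides the members could be tested unless the filter was dropped, and then 0 of 2 had an unadjusted p under 0.05.

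With the replicate number as a block, 0 genes passed the adjusted threshold and 2410 had an unadjusted p under 0.05, of them 15 within 5 Mb of the interval. The deviations of same-numbered arrays from their group means had a correlation of -0.373 across 22312 genes, which are not independent replicates, and the samples share only a number. With crossed pairs, added after seeing the data, 0 genes passed adjusted and 4157 unadjusted.

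Each member rests on 1 spot per array. The second Gm10573 probe, Gm8359 and Gm12886 were not well above background, and no fold is given for them.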
